A study of Homo sapiens with 6 samples.

Results

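The genes described here are 35 of the 62700 in the expression table, and together they carry glucose from the cell surface to lactate or into the mitochondrion. They were chosen by GENCODE Release 44 symbol, with no cut on their values but with earlier results of these data known. The list holds the main glucose transporters, the enzymes of glycolysis with their isoforms, and the enzymes that control phosphofructokinase. It also holds the lactate exporters, the pyruvate carrier, and the pyruvate dehydrogenase complex with its kinases. RNA–Seq measured these genes in SK-Hep-1, a human liver tumour line that the study calls endothelial-derived. In 3 libraries the cells are titled shControl, with a wild-type genotype label, and in 3 they are titled shRAB30-DT, with a *RAB30-DT* knockdown label. Per the methods, both arms came from lentiviral pLKO.1 vectors and puromycin selection, grown in DMEM with serum, so that the knockdown is stable rather than inducible. The study made 2 knockdown vectors and the labels do not say which one is here. Levels are in TPM, the abundance of a gene's transcripts corrected for their length and scaled to the same total in each library.

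Glycolysis splits glucose into pyruvate and yields ATP without oxygen. Lactate dehydrogenase turns pyruvate into lactate, which leaves the cell with a proton, whereas the pyruvate dehydrogenase complex commits it to the citric acid cycle, and pyruvate dehydrogenase kinases switch that complex off by phosphorylation. Several steps have isoforms that differ in kinetics and in their control. *PFKFB3* and *PFKFB4*, for example, make and break the strongest activator of phosphofructokinase, and many genes of the pathway are textbook targets of the hypoxia-inducible factors.

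*RAB30-DT*, the targeted long non-coding RNA, was at 18.16, 11.51 and 13.91 TPM in control replicates 1, 2 and 3. In the knockdown libraries with the same numbers it was at 11.94, 10.85 and 6.5 TPM. The groups overlapped, and the exact two-sided permutation test gave p = 0.2, where 3 libraries against 3 cannot go below 0.1. In the limma fit the log2 fold change of *RAB30-DT* was −0.55 (standard error 0.27, limma adjusted p = 0.36). Groups are named here by their labels, which this gene does not separate in these libraries. The paper reports a qPCR check of the knockdown in SK-Hep-1 cells, without saying whether the sequenced cultures were used. How many reads lie behind a TPM value is not recoverable, and depth is therefore unknown. Both libraries numbered 1 stood apart from the other 4 by base composition: the rank correlation of a gene's deviation with its GC content was −0.607 and −0.523 in control and knockdown replicate 1, and 0.022 to 0.489 in the others. Of 8 hepatocyte markers 5 were at 0 in every library, among them *ALB* and *HNF4A*, and only *SERPINA1* averaged at least 1 TPM. None of 8 endothelial markers averaged 1 TPM and *KDR* and *ERG* were at 0, whereas 7 of 8 mesenchymal markers averaged at least 1 TPM. The summed mesenchymal markers were at 3955 to 4214 TPM in control and 4494 to 4940 TPM in knockdown cells, nearly all of it *VIM*, while *COL1A1* stayed at 0.59 to 2.41 TPM and *COL1A2* at 0 to 0.12 TPM. None of the 8 markers tested was called, but *VIM* (log2 fold change 0.25) and *SERPINA1* (0.59) lay higher, and *THY1* (−0.54) and *PDGFRB* (−1.22) lower, in every knockdown library than in any control library, and their part in the results below was not tested. A lower level in a bulk sample can come from fewer cells of a kind or from less RNA per cell, and these cannot be told apart.

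Of the 35 genes, 34 had a mean of at least 1 TPM over the 6 libraries and entered the limma fit, and 5 of them were higher in knockdown cells at a Benjamini–Hochberg adjusted p under 0.05. They were *PFKFB4*, *PDK1*, *SLC2A3*, *ENO2* and *PGK1*, with log2 fold changes of 1.36 to 2.46. None was called lower. Over all 14020 genes tested, 0.371% were called higher, 0.67% lower and 1.04% in either direction. *PDK4*, a starvation-induced kinase of the pyruvate dehydrogenase complex, was listed at 0 to 0.17 TPM and was not tested. All knockdown libraries lay above all control libraries for 11 of the 34 genes (9.89% of all genes tested did so) and below them for 6 (13.4% of all genes tested), and the groups overlapped for 17. The median log2 fold change was 0.14 over the 34 genes and −0.04 over all genes tested. The calls changed when single libraries were left out, as did those over all genes tested. All 5 were called without control replicate 1 (3.49% of all genes tested), and 4 without control replicate 3 (1.14%). Only 1 was called without knockdown replicate 3 (0.114%). None was called without control replicate 2 (0.0856%), knockdown replicate 1 (0.129%) or knockdown replicate 2 (0.108%). In those last 3 fits limma found 13, 13 and 11 of the genes at an unadjusted p under 0.05, against 12.3%, 11.5% and 10.1% of all genes tested there. Without both libraries numbered 1, 5 genes were called higher and 1 lower (0.962% of all genes tested were called), with *PFKL* in place of *ENO2* among the higher and *SLC16A1* as the lower one. The part of base composition in the calls was not tested beyond removing its trend, which left all 5 called and gave 10 genes higher and 1 lower, with 8.86% of all genes tested called. Whether replicates are separate cultures is not in the labels, so the p-values measure the spread between these libraries, which may be technical.

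**Figure D1:**
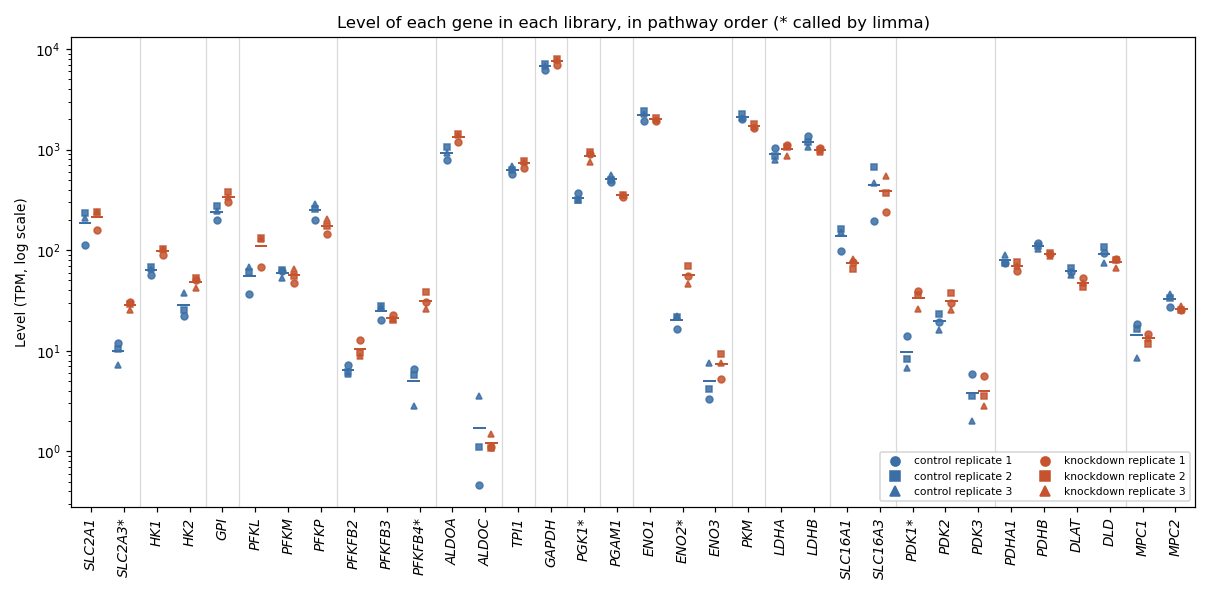
Level of 34 genes in TPM (log axis) in each library, ordered along the pathway from glucose uptake to the mitochondrial pyruvate carrier, with vertical lines between steps. Symbols mark replicates 1, 2 and 3 of control (blue) and knockdown (red) libraries and short lines the means. The 5 genes marked with an asterisk have all red symbols above all blue ones.

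For 4 of the 5 called genes, RefSeq gives start sites (GRCh38.p14), and stretches just before them are shown because the hypoxia-inducible factors are known to bind DNA at the letters ACGTG or GCGTG. No start is shown for *SLC2A3*, for which there was no entry. Capitals mark every ACGTG and GCGTG, read on both strands, so that CACGT and CACGC are capitalised too. A stretch is the longest run of the 250 bases before the start that lies outside GENCODE exons and holds a marked core, or 30 bases around the cores where they lie in an exon of some transcript. *PGK1*, *ENO2* and, as an abundant gene that was not called, *LDHA* were added after their values were seen. The stretches lie at chr3:48556924-48556982 (minus strand, *PFKFB4*), chr2:172556060-172556089 (plus strand, the second *PDK1* start), chrX:78103998-78104247 (plus strand, *PGK1*), chr12:6914449-6914478 (plus strand, *ENO2*) and chr11:18394313-18394559 (plus strand, *LDHA*).
PFKFB4: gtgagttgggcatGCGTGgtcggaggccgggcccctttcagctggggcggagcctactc
PDK1: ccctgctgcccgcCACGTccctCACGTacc
PGK1: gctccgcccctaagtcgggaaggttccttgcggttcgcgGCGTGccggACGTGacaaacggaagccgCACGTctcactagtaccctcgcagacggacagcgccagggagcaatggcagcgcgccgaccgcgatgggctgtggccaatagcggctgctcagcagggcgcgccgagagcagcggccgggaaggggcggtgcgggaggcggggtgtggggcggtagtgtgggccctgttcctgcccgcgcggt
ENO2: cacccgcgctcgtACGTGcgcctccgccgg
LDHA: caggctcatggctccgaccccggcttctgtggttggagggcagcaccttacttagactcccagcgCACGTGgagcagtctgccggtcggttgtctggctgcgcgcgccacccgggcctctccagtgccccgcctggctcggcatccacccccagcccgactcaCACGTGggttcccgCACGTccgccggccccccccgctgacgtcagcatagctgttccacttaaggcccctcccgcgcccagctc

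The marked letters were common. At least 1 core stood in 43.2% of the 35116 RefSeq windows of 250 bases, with ACGTG in 18.5% and GCGTG in 32.2%. The E-box CACGTG, which contains ACGTG on both strands and so counts as 2 cores, stood in 6.34%. Of the 35 genes, 32 had a RefSeq window, the others being *SLC2A3*, *PFKFB2* and *SLC16A1*. By window, 34 of the 64 windows of these genes (53.1%) held a core. A gene can have several windows, so counts by gene are not set against that share of all windows. All 4 called genes with a window had a core in at least 1 of their windows, and so did 22 of the 28 that were not called or not tested. The cores of *PGK1* began 211, 202 and 183 bases before its start, that of *PFKFB4* 166 bases, and those of *PDK1* 17 and 8 bases before its second start, while its first window held none. *LDHA* had 5 cores in its first window, where its 2 E-boxes count as 2 cores each. *PGK1* had 3 cores and no E-box, so these numbers of cores are not like for like. A match is a string of letters and says nothing of binding in these cells.

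Glucose enters through the transporters GLUT1, from *SLC2A1*, and the high-affinity GLUT3, from *SLC2A3*, and the less abundant *SLC2A3* was called higher. *SLC2A3* (ENSG00000059804.17, chr12:7919230-8019007 of hg38, minus strand) was at 11.83, 10.49 and 7.26 TPM in control replicates 1, 2 and 3 and at 30.30, 29.18 and 25.72 TPM in knockdown replicates 1, 2 and 3. The groups were well apart, with a log2 fold change of 1.46 (standard error 0.22, limma adjusted p = 0.0285). This value depends on where reads were assigned. *SLC2A3P1*, a processed pseudogene copied from its transcript, was at 0, 7.31 and 9.63 TPM in control and at 0, 4.84 and 0 TPM in knockdown replicates 1, 2 and 3. With the 3 pseudogenes of *SLC2A3* added to it, the sum was 11.83, 18.01 and 17.05 TPM in control and 30.73, 34.3 and 25.98 TPM in knockdown libraries. The groups still did not overlap, but the log2 fold change was 0.93 and the call was lost (limma adjusted p = 0.0922, where the 20 alternatives ranged from 0.00055 to 0.157). *SLC2A14*, its close paralog, was listed at 0 in every library. *SLC2A1* was at 112.98, 236.11 and 209.98 TPM in control and 160.22, 238.91 and 238.02 TPM in knockdown replicates 1, 2 and 3, and was not called (log2 fold change 0.23, 95% confidence interval −0.44 to 0.91). Control replicate 1 was its lowest library, and without it the value was −0.09. *SLC2A3* made up 5.69% ± 3.31 of the TPM of both transporters in control and 12.2% ± 3.27 in knockdown cells (SD, n = 3 each).

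Hexokinase traps glucose in the cell by phosphorylation, and phosphoglucose isomerase converts the product to its fructose form. *HK1*, the widely expressed hexokinase, was at 57.12, 68.80 and 65.77 TPM in control and at 90.44, 103.43 and 103.17 TPM in knockdown replicates 1, 2 and 3. *HK2*, the inducible isoform of muscle and many tumours, was at 22.08, 25.31 and 37.70 TPM in control and 50.92, 52.95 and 42.29 TPM in knockdown libraries. Neither gene overlapped between groups, and neither passed the test, with log2 fold changes of 0.63 for *HK1* (limma adjusted p = 0.106) and 0.79 for *HK2* (limma adjusted p = 0.145). *GPI*, the isomerase, ranged from 199.5 to 275 TPM in control and from 298.3 to 380.7 TPM in knockdown cells, with a log2 fold change of 0.50 and no call (limma adjusted p = 0.191). The ratio of *HK2* to *HK1* within a library overlapped between groups. A related gene outside the 35, *HKDC1*, stood above *HK1* in control replicate 3 and is given here because it shifts the make-up of the step, as seen after the values were known. It was at 40.83, 48.95 and 103.5 TPM in control and 20.58, 25.11 and 24.97 TPM in knockdown replicates 1, 2 and 3, without a call (log2 fold change −1.30, limma adjusted p = 0.109). Its share of hexokinase TPM was 39.4% ± 9.18 in control and 13.7% ± 0.976 in knockdown cells (SD, n = 3 each).

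Phosphofructokinase makes the committed step of glycolysis, and its liver, muscle and platelet subunits come from *PFKL*, *PFKM* and *PFKP*. None was called, but their proportions differed between groups. *PFKL* was at 36.31, 60.08 and 68.09 TPM in control and at 67.66, 131.19 and 130.36 TPM in knockdown replicates 1, 2 and 3, where knockdown replicate 1 lay just below control replicate 3 (log2 fold change 0.97, limma adjusted p = 0.189). *PFKP*, the most abundant of them, was at 199.90, 258.47 and 291.17 TPM in control and at 144.95, 174.55 and 201.95 TPM in knockdown libraries (log2 fold change −0.52, limma adjusted p = 0.232). *PFKM* was at 61.72, 63.38 and 52.96 TPM in control and 47.50, 55.53 and 65.78 TPM in knockdown libraries, with overlapping groups (95% confidence interval of the log2 fold change −0.50 to 0.33). Within each library the ratio of *PFKP* to *PFKL* does not depend on the scaling of that library. It was 5.505, 4.302 and 4.276 in control and 2.142, 1.331 and 1.549 in knockdown replicates 1, 2 and 3, lower in all knockdown libraries by 1.51 on the log2 scale (exact p = 0.1, the smallest possible, and 0.156 adjusted over 14 ratios). *PFKL* had 14.8% ± 2.31 of the phosphofructokinase TPM in control and 31.7% ± 5.23 in knockdown cells, while *PFKM* kept 16.7% in each (SD 3.94 and 1.46, n = 3 each). *PFKL* has the higher GC content (63.4% against 57.8% in *PFKP* and 50.4% in *PFKM*), and libraries numbered 1, low in GC-rich genes, were also lowest in *PFKL* in each group. With the GC trend of each library removed, *PFKL* was called (limma adjusted p = 0.0190, where its 20 alternatives ranged from 0.0120 to 0.514). The part of base composition in these ratios was not tested.

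Among the isoforms compared, the ratio that differed most between groups was in the enzymes that control phosphofructokinase. *PFKFB4* (ENSG00000114268.12, chr3:48517684-48562015 of hg38, minus strand), whose enzyme makes and breaks the activator of that step, was at 6.62, 5.73 and 2.85 TPM in control and at 30.29, 38.04 and 25.76 TPM in knockdown replicates 1, 2 and 3. Its lowest knockdown library was several times its highest control library. Its log2 fold change of 2.46 (standard error 0.29, limma adjusted p = 0.0215) was the largest of the 34 genes. *PFKFB3*, the isoform that mostly makes the activator, was at 20.46, 27.71 and 26.99 TPM in control and 22.71, 20.17 and 20.78 TPM in knockdown libraries, with overlapping groups (log2 fold change −0.22, 95% confidence interval −0.65 to 0.21). *PFKFB2*, a heart-type isoform, was at 7.25, 6.22 and 5.94 TPM in control and 12.76, 9.51 and 8.89 TPM in knockdown libraries, apart but not called (log2 fold change 0.60, limma adjusted p = 0.215). *PFKFB1*, the liver isoform, was at 0 in 5 libraries and at 0.2 TPM in knockdown replicate 1.

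The order of *PFKFB3* and *PFKFB4* was turned. The ratio of *PFKFB4* to *PFKFB3* was 0.324, 0.207 and 0.106 in control and 1.33, 1.89 and 1.24 in knockdown replicates 1, 2 and 3, so that *PFKFB3* led in every control library and *PFKFB4* in every knockdown library. The difference of 2.93 on the log2 scale was the largest of the 14 ratios, with an exact p of 0.1, the smallest possible, and 0.156 adjusted over the ratios. *PFKFB4* held 13.9% ± 5.68 of the summed TPM of these 3 isoforms in control and 49.6% ± 5.72 in knockdown cells, and *PFKFB3* 68.3% ± 8.03 and 33.9% ± 3.89 (SD, n = 3 each). Their sum was 36.6 ± 2.76 TPM in control and 63.0 ± 6.6 TPM in knockdown cells. Each of the 9 ratios whose groups did not overlap had this smallest p, since 3 libraries against 3 give no other value for separate groups.

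**Figure D2:**
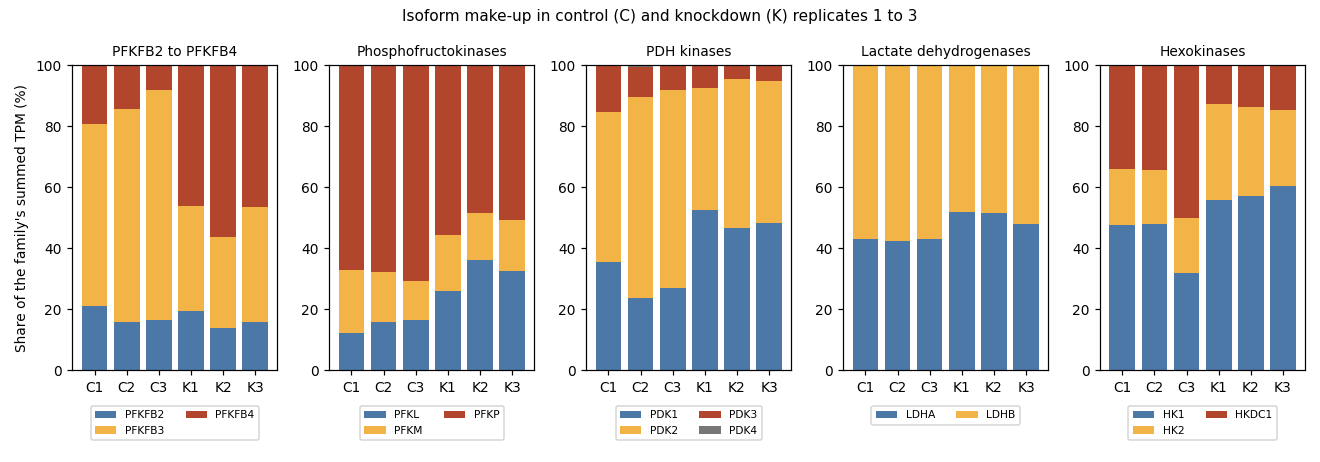
Share of each isoform in the summed TPM of its family, in percent, for control (C) and knockdown (K) replicates 1 to 3, one stacked bar per library. *PFKFB4*, *PDK1*, *PFKL* and *LDHA* have a larger share, and *HKDC1* a smaller one, in every knockdown library than in any control library.

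Aldolase and triose phosphate isomerase make the pair of three-carbon sugars that the lower pathway uses. *ALDOA*, the main aldolase, was at 787.79, 1064.40 and 916.21 TPM in control and 1185.37, 1434.64 and 1386.27 TPM in knockdown replicates 1, 2 and 3. Control and knockdown libraries were apart, and the log2 fold change of 0.54 did not pass (limma adjusted p = 0.124). *ALDOC*, the brain isoform, lay near the filter, at 0.46, 1.10 and 3.58 TPM in control and 1.10, 1.08 and 1.48 TPM in knockdown libraries, and the sign of its change depended on control replicate 3. *TPI1* ranged from 568 to 691.6 TPM in control and from 658.9 to 775.9 TPM in knockdown cells, with overlap (log2 fold change 0.21, 95% confidence interval −0.09 to 0.52).

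*GAPDH*, which makes NADH and is often used to scale expression, was the most abundant of the 35 genes, at 6225.46, 7031.59 and 6846.78 TPM in control and at 6996.28, 8028.56 and 7695.69 TPM in knockdown replicates 1, 2 and 3. The groups overlapped and it was not called, with a log2 fold change of 0.18 (95% confidence interval −0.04 to 0.40, limma adjusted p = 0.394). The next enzyme, phosphoglycerate kinase, makes the first ATP of the pathway, and its gene *PGK1* (ENSG00000102144.15, chrX:77910739-78129295 of hg38, plus strand) was at 367.48, 314.47 and 318.90 TPM in control and at 897.09, 937.69 and 751.46 TPM in knockdown libraries. No library came near the other group. Its log2 fold change of 1.36 (standard error 0.14) had the lowest adjusted p of the 34 genes (limma, 0.00861), and it was the 1 gene still called without knockdown replicate 3. In TPM it rose from 333.6 ± 29.4 to 862.1 ± 97.9 (SD, n = 3 each), the most abundant of the 5 called genes.

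Of the 5 genes for the steps after *PGK1* up to pyruvate, only *ENO2* was called. *PGAM1*, phosphoglycerate mutase, ranged from 471 to 554.9 TPM in control and from 340.4 to 357.3 TPM in knockdown cells, apart and in the lower direction without a call (log2 fold change −0.54, limma adjusted p = 0.0911). *ENO1*, the general enolase, was at 1917.65, 2395.58 and 2243.18 TPM in control and 1935.11, 2074.21 and 1976.00 TPM in knockdown replicates 1, 2 and 3, with overlap and a 95% confidence interval of the log2 fold change of −0.39 to 0.14. *ENO2*, the neuronal enolase (ENSG00000111674.9, chr12:6913745-6923698 of hg38, plus strand), was at 16.51, 21.54 and 22.40 TPM in control and at 55.95, 69.78 and 46.17 TPM in knockdown libraries. It was higher in all knockdown libraries by 1.45 on the log2 scale (standard error 0.21, limma adjusted p = 0.0285). *ENO3*, the muscle enolase, was at 3.32, 4.16 and 7.62 TPM in control and 5.27, 9.24 and 7.54 TPM in knockdown libraries, with overlap. The isoform that rose was a small part of the step, as *ENO2* had 0.909% ± 0.0687 of enolase TPM in control and 2.77% ± 0.484 in knockdown cells (SD, n = 3 each). The summed enolase TPM was 2211 ± 248 in control and 2060 ± 82.7 in knockdown cells.

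*PKM*, pyruvate kinase, which makes the last ATP of glycolysis, ranged from 2034 to 2244 TPM in control and from 1632 to 1810 TPM in knockdown cells, apart in the lower direction without a call (log2 fold change −0.30, limma adjusted p = 0.199). Gene-level TPM do not separate its PKM1 and PKM2 splice forms. Lactate dehydrogenase is a tetramer of *LDHA* and *LDHB* subunits. *LDHA* was at 1028.87, 869.41 and 795.26 TPM in control and 1122.65, 1049.16 and 873.02 TPM in knockdown replicates 1, 2 and 3 (log2 fold change 0.18, 95% confidence interval −0.16 to 0.52). *LDHB* was at 1357.11, 1184.22 and 1053.15 TPM in control and 1046.04, 981.17 and 946.75 TPM in knockdown libraries (log2 fold change −0.27, limma adjusted p = 0.340). The first overlapped between groups and the second only just did not, yet their ratio was steady within each group. *LDHA* to *LDHB* was 0.758, 0.734 and 0.755 in control and 1.07, 1.07 and 0.922 in knockdown libraries, higher in all of the latter by 0.44 on the log2 scale (exact p = 0.1, 0.156 adjusted over 14 ratios). The 18 of the 35 genes that run from hexokinase to lactate dehydrogenase held 1.62% ± 0.0833 of all TPM in control and 1.75% ± 0.0929 in knockdown cells (SD, n = 3 each), with overlapping libraries. Isoforms outside the 35, such as *HKDC1*, are not in that sum, and *GAPDH* alone was a large part of it.

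Lactate leaves through the monocarboxylate transporters MCT1, from *SLC16A1*, and MCT4, from *SLC16A3*, the latter suited to export. *SLC16A1* was at 98.43, 161.43 and 152.87 TPM in control and at 76.04, 65.24 and 82.10 TPM in knockdown replicates 1, 2 and 3. It was lower in all knockdown libraries, the lowest log2 fold change of the 34 genes at −0.85, without a call (limma adjusted p = 0.113). *SLC16A3* was at 193.65, 666.22 and 467.21 TPM in control and 241.79, 368.02 and 544.25 TPM in knockdown libraries. The groups overlapped and each spread widely, with a 95% confidence interval of the log2 fold change of −1.15 to 0.94. *SLC16A3* had the highest GC content of the 35 genes, 64.7%, and libraries numbered 1 were its lowest in both groups.

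At the entry to the mitochondrion, 1 kinase that switches pyruvate dehydrogenase off, *PDK1*, was called higher, and no gene of the complex was called. *PDK1* (ENSG00000152256.14, chr2:172555373-172608669 of hg38, plus strand) was at 13.88, 8.37 and 6.69 TPM in control and at 39.21, 36.18 and 26.20 TPM in knockdown replicates 1, 2 and 3. All knockdown libraries were well above the controls, with a log2 fold change of 1.75 (standard error 0.28, limma adjusted p = 0.0368). Its antisense neighbour *PDK1-AS1* shares 445 of the 14845 exonic bases of *PDK1*. *PDK1-AS1* was at 1.74, 0.51 and 2.41 TPM in control and at 7.78, 6.2 and 6.9 TPM in knockdown libraries. Whether the counting used strand is not given in the sources used here, so reads of these 2 genes cannot be told apart where they overlap. *PDK2*, the most widespread of the kinases, was at 19.36, 23.34 and 16.15 TPM in control and 29.92, 37.86 and 25.34 TPM in knockdown libraries, apart without a call (log2 fold change 0.63, limma adjusted p = 0.203). *PDK3* was low throughout, at 5.83, 3.56 and 2.02 TPM in control and 5.66, 3.54 and 2.81 TPM in knockdown libraries.

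*PDK2* was the leading kinase in every control library, and *PDK1* drew level with it in knockdown cells. The ratio of *PDK1* to *PDK2* was 0.717, 0.359 and 0.414 in control and 1.31, 0.956 and 1.03 in knockdown replicates 1, 2 and 3, and that of *PDK1* to *PDK3* was 2.38, 2.35 and 3.31 in control and 6.93, 10.2 and 9.32 in knockdown libraries. Neither ratio overlapped between groups (differences of 1.20 and 1.72 on the log2 scale, each with an exact p of 0.1 and 0.156 adjusted over 14 ratios). The share of *PDK1* in the summed kinase TPM was 28.7% ± 6.1 in control and 49.1% ± 3 in knockdown cells, and the sum itself was 33.2 ± 7.42 and 68.9 ± 12.7 TPM (SD, n = 3 each).

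None of the 4 genes of the complex among the 35 was called. *PDHA1* and *PDHB* encode its first enzyme, *DLAT* the second and *DLD* the third, and their log2 fold changes were −0.20, −0.28, −0.36 and −0.27. *PDHB* and *DLAT* did not overlap between groups, and *PDHA1* and *DLD* did. Their sum, formed after the values were seen, was 347.17, 359.32 and 324.21 TPM in control and 286.5, 293.59 and 271.38 TPM in knockdown replicates 1, 2 and 3, below the controls in all knockdown libraries. That sum leaves out *PDHX*, a further gene of the complex outside the 35, which overlapped between groups without a call (log2 fold change −0.12). The pyruvate carrier subunits *MPC1* and *MPC2* ranged from 8.43 to 36.8 TPM over both genes and all libraries, overlapped between groups, and were not called (log2 fold changes −0.05 and −0.29).

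**Figure D3:**
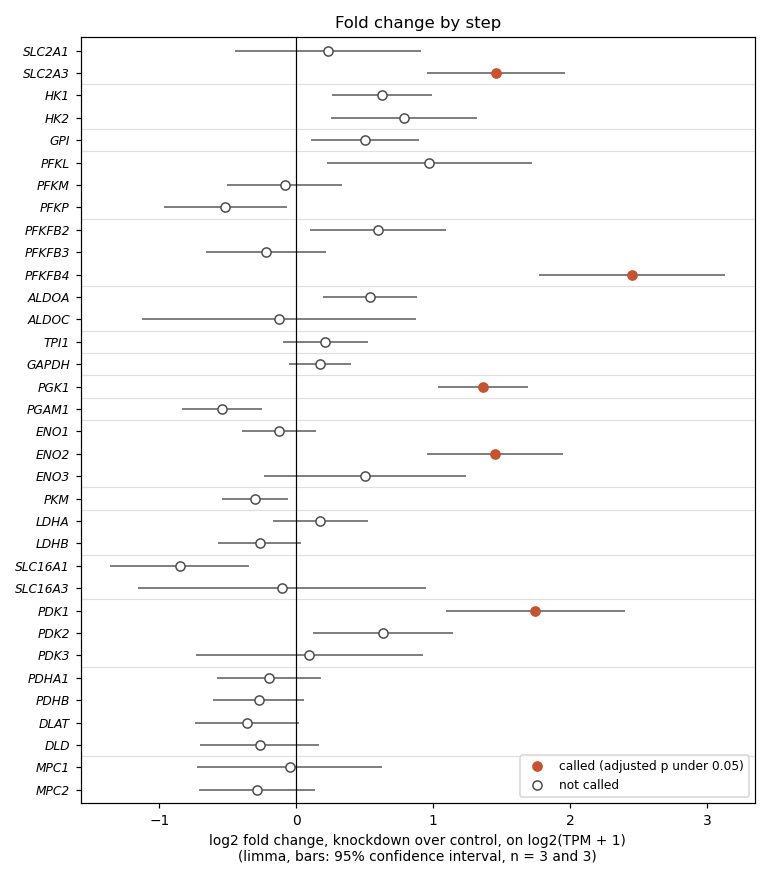
Log2 fold change of knockdown over control on the log2(TPM + 1) scale with its 95% confidence interval from limma (n = 3 and 3), for 34 genes in pathway order. The 5 filled points are the called genes, from 1.36 (*PGK1*) to 2.46 (*PFKFB4*), and 16 of the 34 points lie below 0.

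Isoform pairs are given here as a description, since several share a gene or hold one that was called, and no share over other pairs of genes was computed. Of the 15 pairs formed, *PDK4* with *PDK2* had libraries at 0 and gave no ratio. In 9 of the other 14, knockdown and control libraries did not overlap, and in 5 they did. *ENO2* to *ENO1* was 0.00861, 0.00899 and 0.00999 in control and 0.0289, 0.0336 and 0.0234 in knockdown replicates 1, 2 and 3, a difference of 1.63 on the log2 scale against within-group SDs of 0.11 and 0.26. *SLC2A3* to *SLC2A1* was higher by 1.32 and *PFKFB2* to *PFKFB3* by 0.90, while *PFKM* to *PFKL* fell by 1.07. The pairs that overlapped were *HK2* with *HK1*, *ALDOC* with *ALDOA*, *ENO3* with *ENO1*, *SLC16A3* with *SLC16A1*, and *PDK3* with *PDK2*.

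**Figure D4:**
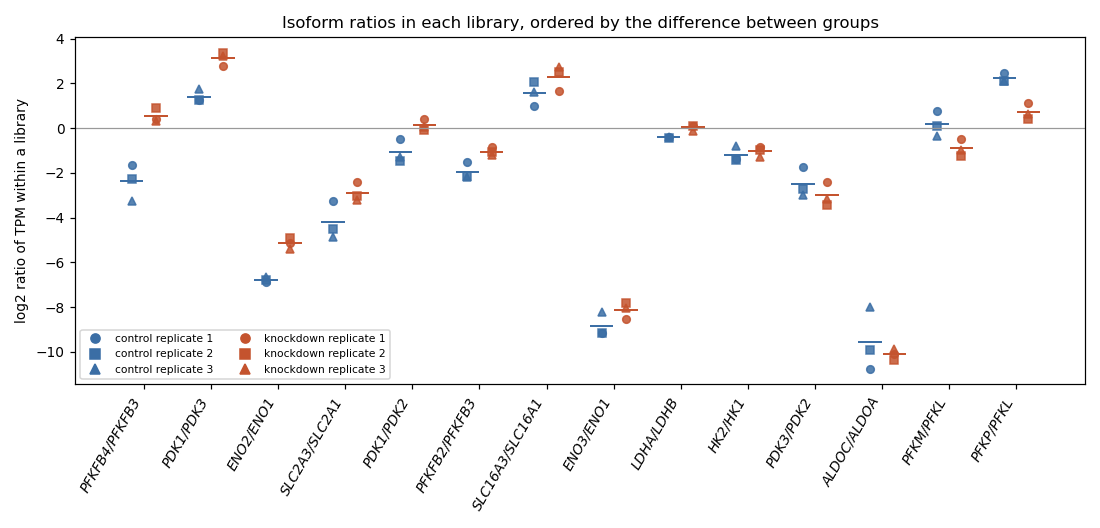
Log2 of the TPM ratio of 2 isoforms within each library for the 14 pairs, ordered by the difference between knockdown (red) and control (blue), with symbols for replicates 1, 2 and 3 and short lines for means. *PFKFB4*/*PFKFB3* crosses 0, where both isoforms are equal, between the groups, and its difference of 2.93 is the largest.

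Other called genes, besides *PDK1* with *PDK1-AS1*, share exonic bases with a neighbour as well. *ATP7A* shares 97 of the 5437 exonic bases of *PGK1* and averaged 5.8 TPM. *UCN2* shares 298 of the 6107 exonic bases of *PFKFB4* and averaged 0.295 TPM. Pseudogenes named after the other 34 genes summed to at most 0.401% of the level of their parent in any library.

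Outside the 35 genes, 1 gene of glucose metabolism was called, and it was lower. Of 74 further genes of glucose metabolism, 50 were tested, and limma called 0 higher and 1 lower, with 12 at an unadjusted p under 0.05 (16.8% of all genes tested). The one was *RPIA*, ribose phosphate isomerase of the pentose phosphate pathway, at 34.81, 37.85 and 35.18 TPM in control and at 9.86, 11.62 and 11.30 TPM in knockdown replicates 1, 2 and 3. Both groups were tight and far apart, with a log2 fold change of −1.63 (standard error 0.17, limma adjusted p = 0.00878), and the call was lost without control replicate 2 or any 1 of the knockdown libraries. All 16 tested genes of the citric acid cycle overlapped between groups and none was called, with log2 fold changes of −0.31 to 0.35. Of 9 tested glycogen genes none was called, of 4 in gluconeogenesis none, and of 14 further isoforms and regulators of the glycolytic steps none.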

How the data were processed

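RNA–Seq of poly-A RNA from 6 SK-Hep-1 libraries (3 control, 3 *RAB30-DT* knockdown) was used. The authors trimmed reads with fastp, aligned them, estimated gene abundance with RSEM and deposited TPM values per gene, rounded to 2 decimals. The methods name STAR and GENCODE Release 45, whereas the submitters' processing notes name HISAT2 2.0.5 and hg38, and all 62700 versioned identifiers matched GENCODE Release 44, which gave names, positions and GC content here. Counting error cannot be had from TPM, and precision rests on n = 3 in each arm.

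On the log2(TPM + 1) scale, groups were compared with limma 3.58.1 (lmFit, eBayes with trend, two-sided) in R 4.3.3, over the 14020 genes that averaged 1 TPM or more, with Benjamini–Hochberg adjustment and a threshold of 0.05. A fold change on this scale understates the change of low genes. Isoform ratios were compared by exact two-sided permutation tests over libraries, adjusted over 14 pairs, in Python 3.11.15. The fit was run on simulated data with independent noise in each library. Those data lacked the GC trends and shared deviations of the real libraries, so that run cannot vouch for the calls here. The members, lists and alternatives were chosen with earlier results of these data known. Values in each library are given for called genes, for isoforms in a listed pair with a mean of at least 1 TPM and for *GAPDH*, and others by range. Of the other pathway genes, those called were to be named. Genes named beyond this rule, the cell type markers and *RAB30-DT* aside, were named with their values known. The alternatives were other pseudocounts, filters, scalings, variance models, library weights, a replicate block, removal of GC trends, and single libraries left out. Leaving out both libraries numbered 1 and adding pseudogene TPM to *SLC2A3* were chosen after seeing the data. Protein sequences and splice forms were not analysed here.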

Additional observations from a re-analysis of the deposited data

How the results depend on the processing

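In place of 5 of the 35 genes called, there were 0 when low genes were kept in, 19 with arrayWeights (13 higher, 6 lower), 12 with the replicate block (10 higher, 2 lower), 11 with the GC trend removed (10 higher, 1 lower) and 12 with the replicate block and the GC trend removed (10 higher, 2 lower). With single libraries left out there were 0 to 7, of them 0 to 5 higher and 0 to 2 lower. Same-numbered libraries deviated together with correlations of 0.41, 0.0359 and 0.279, so that not every pair passed 0.1 and the numbers were not taken as pairs. Without both libraries numbered 1, 5 were higher and 1 lower: *ENO2* lost its call, and *PFKL* (1.02) and *SLC16A1* (−1.09) gained one. eBayes without trend lost *PDK1*, and the pseudogene sum lost *SLC2A3*. With the block, and also with it and GC removal, *HK1*, *GPI*, *PFKL*, *ALDOA* and *PDK2* were called higher and *PFKP* and *PGAM1* lower beside the 5.

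Over all genes, 146 calls became 13 without a filter, 3218 with arrayWeights, 861 with the replicate block, 1242 with the GC trend removed, 1074 with both, and 12 to 489 with single libraries left out. Of all calls 35.6% were higher, against 50.0% with median-of-ratios scaling and 48.4% with quantile normalization. The 1 other pathway gene called became 2 at a mean of 5 TPM, 3 with median-of-ratios scaling or quantile normalization, 15 with arrayWeights, 4 with the replicate block, 6 with the GC trend removed, 6 with both, 2 without both libraries numbered 1, and 0 to 5 with single libraries left out.

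The log2 fold change changed sign for *PFKM* with quantile normalization (0.04) and without both libraries numbered 1 (0.06), for *MPC1* without both (0.08), and for *SLC16A3* with quantile normalization (0.08) and with the GC trend removed, without or with the block (0.02 each). With single libraries left out it spanned −0.09 to 0.44 for *SLC2A1*, −0.20 to 0.03 for *PFKM*, −0.49 to 0.34 for *ALDOC*, −0.61 to 0.28 for *SLC16A3*, −0.20 to 0.39 for *PDK3* and −0.37 to 0.16 for *MPC1*. The log2 ratio of *ALDOC* to *ALDOA* spanned −1.15 to 0.22. The cause was not tested in any of these cases. The other isoform ratios kept their sign in all alternatives run, as did the fold changes of the 5 called genes, and *RAB30-DT* was called in none. Depth limits every value to an unknown degree, since the files hold no read number.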

Other observations

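Glycogen genes outside the 35 showed levels that were chosen for mention after they were seen. *GYS1*, the muscle-type glycogen synthase, was at 18.29, 20.92 and 18.96 TPM in control and at 37.36, 42.86 and 33.96 TPM in knockdown replicates 1, 2 and 3, and its log2 fold change of 0.93 just missed the threshold (limma adjusted p = 0.0544). *GBE1*, the branching enzyme, was at 37.04, 29.78 and 21.56 TPM in control and 77.79, 70.41 and 51.94 TPM in knockdown libraries (log2 fold change 1.17, limma adjusted p = 0.0727). For both genes all knockdown libraries lay above all control libraries. The phosphorylases, which break glycogen down, lay on the other side: *PYGL* and *PYGB* had log2 fold changes of −0.25 and −0.37, with separate groups and no call.

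The genes that follow were likewise chosen for mention after their values were seen. *TIGAR*, a phosphatase that lowers the activator of phosphofructokinase, was at 25.59, 9.37 and 10.37 TPM in control and 33.20, 28.57 and 32.41 TPM in knockdown replicates 1, 2 and 3. Control replicate 1 was close to the knockdown libraries, and the log2 fold change of 1.14 was not called (limma adjusted p = 0.156). In the pentose phosphate pathway, *RPE*, *TKT* and *TALDO1* lay lower in every knockdown library than in any control library, as *RPIA* did, without a call (log2 fold changes −0.38, −0.55 and −0.32), while *PGD* lay higher (0.38).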
